A study of Homo sapiens with 12 samples.

Results

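The human mitochondrial genome encodes 37 genes, and all 37 were among the 62702 genes of the count table analysed here. They were taken as every gene that the table places on chromosome MT: 13 protein-coding genes, 2 ribosomal RNA (rRNA) genes and 22 transfer RNA (tRNA) genes. Of these, 28 lie on one strand and 9 on the other. The 9 are MT-ND6 and 8 tRNA genes.

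Mitochondrial DNA is transcribed by its own polymerase, POLRMT, into long precursors that span many genes on each strand, and the tRNAs that punctuate these precursors are cut out to release the mRNAs and rRNAs. Most of the released mRNAs then receive a short poly(A) tail, and in several of them the tail completes the stop codon. Their levels therefore depend on a shared transcription step and on processing and decay that differ from RNA to RNA. All 13 proteins are subunits of the respiratory chain complexes I, III and IV or of the ATP synthase, complex V, and are made on the mitochondrial ribosome, which contains both rRNAs.

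The cells were 786-O, a line from a human clear cell carcinoma of the kidney, and their RNA was measured by BRB-seq, which pools barcoded samples and primes on poly(A), so that reads come from the 3′ ends of transcripts. There were 4 groups of 3 libraries: parental cells, and lines with inducible shRNAs that target HIF2A (the EPAS1 gene), named shHIF2A, the AP-1 genes JUN, JUNB and JUND, named shJUNs, or YAP1 and WWTR1, which encode YAP and TAZ, named shYAPTAZ. All 12 libraries, parental ones included, came from cells given doxycycline for 72 hours, an antibiotic known to inhibit the mitochondrial ribosome, and no group without doxycycline was analysed here. The shRNA lines were also selected with puromycin, blasticidin or hygromycin, according to the number of genes silenced, a line carrying a control shRNA was not analysed here, and the sources used here do not say whether the lines are clones or pools.

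Libraries held 2272459 to 4469956 counts. The labels call the replicates technical, so each p-value measures only the spread between these libraries, and a knockdown cannot be told apart from other differences between the lines. The 6 shRNA targets were all lower in their own line, by 1.70-fold to 12.7-fold, each past the test described below, although the JUNB libraries overlapped the parental ones. All 8 markers of the renal carcinoma line (PAX8, PAX2, VIM, KRT8, KRT18, CA12, NDUFA4L2 and CD70) averaged at least 1 CPM, the count scaled to a common library size. Summed blood markers (6 genes, 3 with no count) were 0 to 3.49 CPM in a library and endothelial markers (5 genes, 3 with no count) 0 to 0.96 CPM. Summed neural markers (5 genes) were 49.3 to 79.3 CPM in parental libraries, 24.5 to 44.2 in shHIF2A, 34.7 to 47.1 in shJUNs and 50.6 to 113 in shYAPTAZ. MBP, RBFOX3 and SNAP25 averaged at least 1 CPM, and SYN1 and GFAP did not. Of the 2 nuclear-retained RNAs examined, NEAT1 fell in each knockdown line, from 205 ± 83.5 CPM (SD, n = 3) in parental cells to 87.2 ± 15.2 in shHIF2A, 80.2 ± 2.60 in shJUNs and 53.7 ± 23.8 in shYAPTAZ, and MALAT1 passed the test in none. The part of these RNAs in the results below was not tested.

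The 3′ ends of 8 of the protein-coding genes are shown because they separate the mRNAs whose stop codon is encoded in full from those whose stop codon needs the tail. The end of an annotated gene need not be the end of its mRNA, where the tail and the priming site of this assay lie. Next to MT-CO1, for example, lies MT-TS1 on the other strand, and the next tRNA gene on its own strand is MT-TD, which starts at 7518. Sequences and positions are those of GENCODE release 29 (hg38, chromosome MT), whose coordinates were identical to the deposited ones for all 37 genes. Each line gives the last 30 bases of the gene, 5′ to 3′ on the strand of the gene, and capitals mark the annotated stop bases. Of the 13 mRNAs, 6 end in an incomplete stop codon: T in MT-ND2, MT-CO3, MT-ND3, MT-ND4 and MT-CYB, and TA in MT-ND1. The other 7 carry a full annotated triplet (3 TAA, 2 TAG, 1 AGA and 1 AGG). The first 6 sequences are the incomplete ends and the last 2 are complete.
MT-ND1 (chrMT:4233-4262, + strand): tacaatctccagcattccccctcaaaccTA
MT-ND2 (chrMT:5482-5511, + strand): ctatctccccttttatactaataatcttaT
MT-CO3 (chrMT:9961-9990, + strand): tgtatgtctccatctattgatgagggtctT
MT-ND3 (chrMT:10375-10404, + strand): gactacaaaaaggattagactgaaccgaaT
MT-ND4 (chrMT:12108-12137, + strand): accccgacatcattaccgggttttcctctT
MT-CYB (chrMT:15858-15887, + strand): taattgaaaacaaaatactcaaatgggccT
MT-CO1 (chrMT:7416-7445, + strand): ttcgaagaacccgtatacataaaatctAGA
MT-ATP6 (chrMT:9178-9207, + strand): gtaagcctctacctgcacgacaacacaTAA

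The rRNAs are shown by their longest run of A, in capitals, because a poly(T) primer can also pair with A runs inside a transcript.
MT-RNR1 (chrMT:981-1010, + strand): cacctgagttgtAAAAAActccagttgaca
MT-RNR2 (chrMT:2445-2474, + strand): taaggaaaggttAAAAAAAgtaaaaggaac
The run is 7 bases long in MT-RNR2 and lies 766 bases before the end of the gene, and in MT-RNR1 it is 6 bases long, 603 bases before the end. Longest runs ranged from 3 bases in MT-ND4L and MT-ND6 to 8 in MT-ND5 among the 15 rRNA and protein-coding genes. The table has 1 count per gene and library and no read positions, so priming at tails and at inner runs cannot be told apart. Neighbouring genes also share bases: MT-ATP8 and MT-ATP6 overlap by 46, MT-ND4L and MT-ND4 by 7, and MT-ATP6 and MT-CO3 by 1. Each of these pairs but the last is also carried on a single mRNA, with MT-ATP8 and MT-ND4L in the 5′ part. The sources used here do not say how reads in shared bases were assigned. In this text mRNAs are counted by gene, so the genes of such a pair are not separate molecules.

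The 12 libraries held 3123897 mitochondrial counts in all. MT-RNR2, the rRNA of the large subunit of the mitochondrial ribosome, took 52.8% of them, and both rRNAs together 55.5%. The 13 mRNAs took 44.5%, and 4 of these, MT-CO3, MT-CO2, MT-ND4 and MT-ATP6, held 77.3% of the mRNA counts. On the scale of CPM per kilobase of gene, averaged over the 12 libraries, MT-RNR2 stood at 25679, MT-CO3 at 14493, MT-CO2 at 8255, MT-ATP6 at 5092, MT-ND4 at 3981 and MT-ND3 at 3449. MT-RNR1 followed at 2098, MT-ND2 at 1706, MT-CYB at 1577, MT-ND1 at 1518 and MT-CO1 at 630. Lowest were MT-ND4L at 289, MT-ATP8 at 181, MT-ND5 at 166 and MT-ND6 at 14.9. Reads of a 3′ assay do not scale with length in the way that reads over whole transcripts do, so this order describes the libraries and not molecules per cell. MT-ND5, which has the longest A run (8 bases), was 1 of the 3 lowest mRNAs on this scale. MT-RNR2, the highest on it, has a run of 7 bases, as have MT-ND4, MT-ND2 and MT-CO1. The part of A runs in these levels was not tested.

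The minus strand gave few counts. Its 9 genes held 376 counts, 0.0120% of the mitochondrial total, of which MT-ND6 (ENSG00000198695, chromosome MT 14149 to 14673), whose mRNA is known to lack a poly(A) tail, held 333. The 22 tRNAs, which carry no poly(A) tail as mature molecules, had 184 counts in all. MT-TT had 52 of these, MT-TM 32 and MT-TP 27, a further 13 tRNAs had at least 1, and 6 (MT-TN, MT-TK, MT-TG, MT-TH, MT-TS2 and MT-TL2) had none. A floor of 3 counts equals 0.671 to 1.32 CPM in a library, so a gene without counts could have been present up to that level. No tRNA passed the filter on low counts, and the 15 members tested were the 13 mRNAs and both rRNAs.

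Mitochondrial transcripts took a share of the library that overlapped between all 4 groups. The share was 7.64%, 7.29% and 6.91% in parental replicates 1, 2 and 3, a mean of 7.28% ± 0.365 (SD, n = 3). It was 9.37%, 8.49% and 7.20% in shHIF2A (8.36% ± 1.09), 7.44%, 7.25% and 6.33% in shJUNs (7.01% ± 0.597), with 8.40%, 7.79% and 6.54% in shYAPTAZ (7.57% ± 0.948). The exact (Clopper-Pearson) 95% intervals, which cover counting error only, reached at most 0.0361 percentage points from the share. Reads that are copies of 1 molecule would make these intervals too narrow, and the sources used here do not say whether such copies were removed. The mean share in shHIF2A was 1.15 times the parental one, in shJUNs 0.963 times and in shYAPTAZ 1.04 times. No p is given for these shares, which sum the members. In bulk RNA, fewer cells with a transcript and less of it per cell cannot be told apart.

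**Figure D1:**
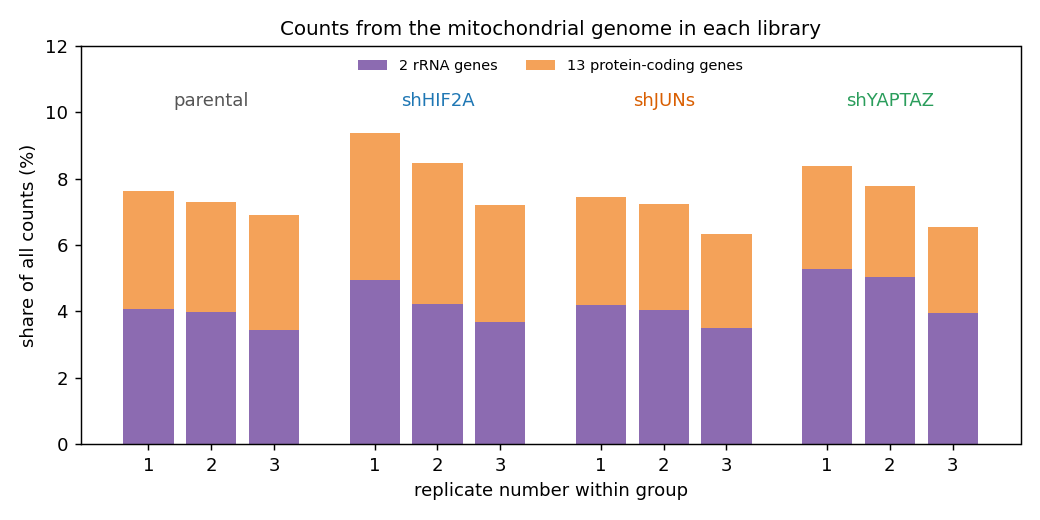
Share of all counts (%, y axis) from the 2 rRNA genes (purple) and the 13 protein-coding genes (orange) of the mitochondrial genome in each library, by replicate number within group (x axis). Within each of the 4 groups the bar of replicate 1 is the tallest and that of replicate 3 the shortest, and the lowest orange parts (2.60% and 2.74%) are in shYAPTAZ.

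The libraries numbered 1, 2 and 3 fell in the same order of mitochondrial share, highest to lowest, in 4 of 4 groups. The rRNA share had that order in 4 groups and the mRNA share in 3, while total counts had it in 1, so the order of the shares was not that of the depths. Gene by gene, the order was held by MT-RNR2 in 4 groups, by MT-CO2, MT-ATP6 and MT-CYB in 3, and by MT-RNR1 in none. MT-RNR2 held 52.8% of all mitochondrial counts, so the mitochondrial and rRNA shares are not independent of this gene. Over all 12301 genes tested, 78 had CPM in that order in all 4 groups, 0.634% of them. MALAT1, an RNA kept in the nucleus, had it in 3 groups. The sources used here do not say what the numbers stand for beyond technical replicates, and the order was seen in earlier results of these data, so it is a description without a test.

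The make-up of the mitochondrial counts set shYAPTAZ apart, although their sum did not. In shJUNs the mRNA part also lay below all parental libraries, of mitochondrial counts and of all counts, by less on average than in shYAPTAZ. In shHIF2A the mRNA part overlapped the parental one. In replicates 1 to 3, the mRNAs made up 46.6%, 45.5% and 50.1% of mitochondrial counts in parental cells, and 47.1%, 50.4% and 48.9% in the shHIF2A line. They made up 43.6%, 44.0% and 44.7% in shJUNs, with 37.0%, 35.2% and 39.7% in shYAPTAZ. All 3 shYAPTAZ libraries lay below all 9 others. Set against all counts, mRNAs took 3.56%, 3.32% and 3.46% in parental cells, 4.42%, 4.28% and 3.52% in shHIF2A, 3.25%, 3.19% and 2.83% in shJUNs, with 3.11%, 2.74% and 2.60% in shYAPTAZ. The rRNA share of all counts was 4.08%, 3.97% and 3.45% in parental libraries and 5.29%, 5.05% and 3.94% in shYAPTAZ, where replicate 3 lay within the parental range. Thus the near-equal sums of parental cells and shYAPTAZ held fewer mRNA counts, which did not overlap, and more rRNA counts, which did.

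Among the mRNAs, complex IV transcripts made up 51.3% to 53.3% of mRNA counts in parental libraries, 51.7% to 53.5% in shHIF2A, 54.6% to 55.3% in shJUNs and 53.6% to 56.4% in shYAPTAZ. Complex I transcripts averaged 30.6% ± 0.537, 32.6% ± 0.664, 29.4% ± 0.462 and 29.5% ± 2.27 in the same order of groups (SD, n = 3). The complex V share was 11.2% to 11.9% in parental cells and lower in every library of the knockdown lines, 9.64% to 9.91% in shHIF2A, 10.6% in each shJUNs library and 9.59% to 10.3% in shYAPTAZ. Complex III, represented by MT-CYB alone, took 5.34% to 6.38% in parental cells, above all libraries of shHIF2A (4.33% to 5.29%) and shJUNs (4.70% to 5.16%), while shYAPTAZ (4.78% to 6.09%) overlapped the parental range.

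**Figure D2:**
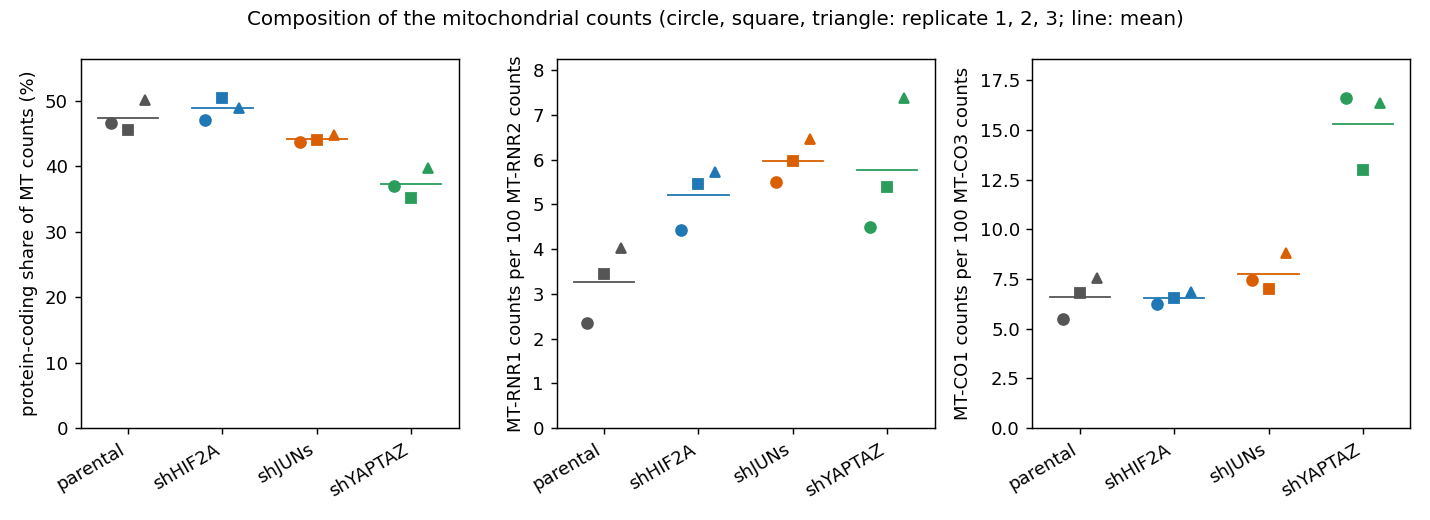
Composition of the mitochondrial counts in each library: share of the 13 mRNAs in all mitochondrial counts (left, %), MT-RNR1 counts per 100 MT-RNR2 counts (middle) and MT-CO1 counts per 100 MT-CO3 counts (right), with groups on the x axis, symbols for replicates and lines for means. The shYAPTAZ libraries lie apart in the left (35.2% to 39.7%) and right (13 to 16.6) panels, and the parental libraries are the lowest group in the middle panel (2.36 to 4.03).

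Levels below are CPM scaled by TMM, and differences are log2 changes ± SE from edgeR's quasi-likelihood test over 12301 genes, with a call where the adjusted p (Benjamini-Hochberg) was under 0.05. The 3 comparisons with parental cells share the parental libraries and are therefore not independent of each other. A test of any difference between the 4 groups called 11 of the 15 members and 38.7% of all genes, and the exceptions were MT-RNR2, MT-CO2, MT-ND6 and MT-CYB. Against parental cells, shHIF2A had 6 members higher (9.84% of all genes were called higher) and 0 lower (8.8%), and 18.6% of all genes were called either way. In shJUNs 1 member was higher (10.3% of all genes) and 3 were lower (8.93%), 4 either way (19.3%). In shYAPTAZ 2 were higher (13%) and 7 lower (12.3%), 9 either way (25.3%). For the 0 in shHIF2A, no member was lower at an unadjusted p under 0.05 in edgeR, and DESeq2 and limma-voom called 0 as well. The median log2 change of the 15 members was 0.23 in shHIF2A, -0.23 in shJUNs and -0.31 in shYAPTAZ, beside 0.0047, -0.0016 and 0.022 over all genes tested.

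**Figure D3:**
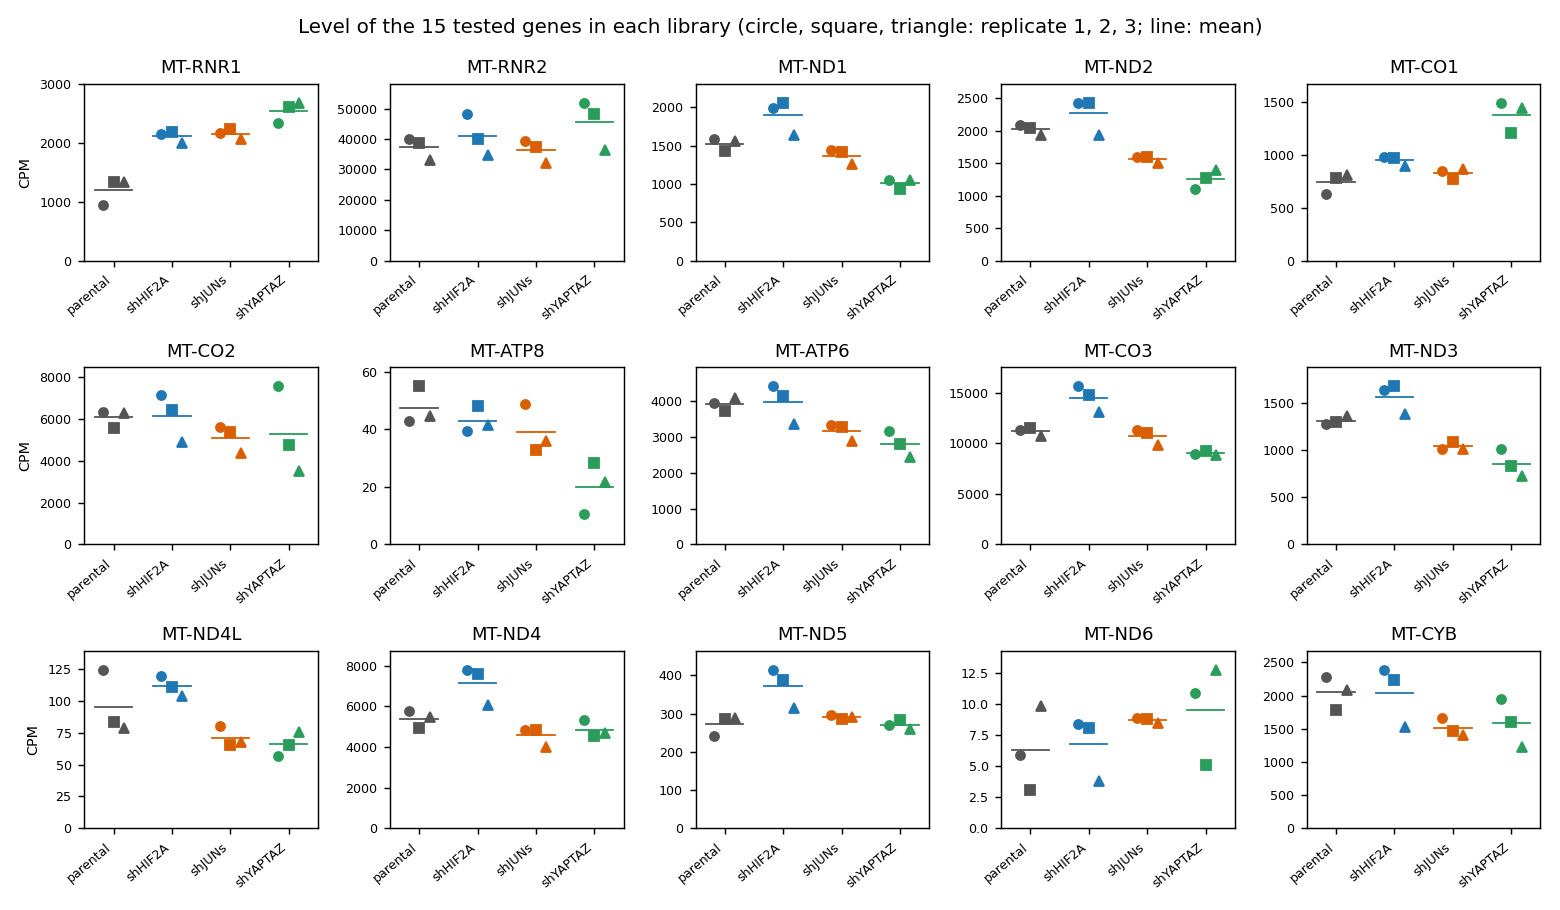
CPM (y axis, from 0, a scale of its own for each gene) of the 15 tested members in each library, with groups on the x axis, symbols for replicates 1, 2 and 3 and lines for group means. MT-RNR1 is lowest in the parental libraries, MT-CO1 is highest in shYAPTAZ, and MT-ND1, MT-ND2 and MT-ND3 are lowest in shYAPTAZ.

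MT-RNR1 (ENSG00000211459, chromosome MT 648 to 1601), the rRNA of the small subunit of the mitochondrial ribosome, rose in all 3 knockdown lines. In replicates 1 to 3 it stood at 942, 1332 and 1338 CPM in parental cells, at 2146, 2181 and 1996 in shHIF2A, at 2160, 2238 and 2063 in shJUNs, with 2339, 2601 and 2680 in shYAPTAZ. No knockdown library overlapped a parental one, and the lowest parental value was replicate 1. The log2 change was 0.81 ± 0.12 in shHIF2A (1.75-fold, adjusted p = 4.08e-05), 0.84 ± 0.12 in shJUNs (1.79-fold, adjusted p = 1.98e-05) and 1.08 ± 0.12 in shYAPTAZ (2.11-fold, adjusted p = 4.43e-07). The call held in all 21 alternative fits of each comparison, including each fit that left out 1 of the 12 libraries.

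MT-RNR2 (ENSG00000210082, chromosome MT 1671 to 3229), cut from the same precursor as MT-RNR1 and next to it on the genome apart from MT-TV, passed the test in no comparison. Its levels were 39973, 38729 and 33208 CPM in parental cells, 48344, 40049 and 34837 in shHIF2A, 39297, 37498 and 31959 in shJUNs, with 51985, 48189 and 36342 in shYAPTAZ. Groups overlapped throughout, and in each the library numbered 3 was the lowest. In shYAPTAZ the log2 change was 0.29 ± 0.14 (adjusted p = 0.164), and it passed without shYAPTAZ replicate 3 (adjusted p = 0.0139) and without a filter on low counts (0.00744). The ratio of the rRNAs set the parental libraries apart: MT-RNR1 counts per 100 MT-RNR2 counts were 2.36, 3.44 and 4.03 in parental cells, 4.44, 5.45 and 5.73 in shHIF2A, 5.50, 5.97 and 6.45 in shJUNs, with 4.5, 5.40 and 7.38 in shYAPTAZ. All 9 knockdown libraries lay above all 3 parental ones. Within each group the ratio also rose from replicate 1 to replicate 3. The highest parental value (4.03, replicate 3) lay close to the lowest knockdown value (4.44, shHIF2A replicate 1).

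Complex I, which takes electrons from NADH, has 7 of the mRNAs, of which 3 rose in shHIF2A and 4 fell in shYAPTAZ, with MT-ND1 in both. MT-ND1 (ENSG00000198888, chromosome MT 3307 to 4262), part of the arm in the membrane, was 1583, 1426 and 1564 CPM in parental cells, 1992, 2063 and 1637 in shHIF2A, 1440, 1415 and 1258 in shJUNs, with 1049, 939 and 1045 in shYAPTAZ. The shYAPTAZ libraries were the 3 lowest of 12, without overlap with any other group. MT-ND1 fell in shYAPTAZ (log2 change -0.59 ± 0.11, 1.51-fold, adjusted p = 0.000292) and rose in shHIF2A (0.32 ± 0.11, 1.24-fold, adjusted p = 0.0423). The rise was a weak call: it ended without parental replicates 1, 2 or 3 (adjusted p = 0.0503, 0.172 and 0.0642), shHIF2A replicates 1 or 2 (0.137 and 0.21), shJUNs replicates 1, 2 or 3 (0.0646, 0.0703 and 0.0634) or shYAPTAZ replicate 2 (0.0561). It also ended with DESeq2 (0.0629), with the size factors of DESeq2 in edgeR (0.0517), without a filter (0.097) and in a fit of the 6 libraries compared (0.0504).

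MT-ND2 (ENSG00000198763, chromosome MT 4470 to 5511), another membrane subunit, was 2085, 2042 and 1934 CPM in parental cells, 2432, 2426 and 1938 in shHIF2A, 1595, 1599 and 1505 in shJUNs, with 1106, 1275 and 1398 in shYAPTAZ. It fell in shYAPTAZ (-0.68 ± 0.11, 1.60-fold, adjusted p = 7.07e-05) and in shJUNs (-0.37 ± 0.11, 1.29-fold, adjusted p = 0.0192), with every library of both lines below every parental one. The shJUNs call ended without parental replicate 2 (adjusted p = 0.0597) or shJUNs replicates 1, 2 or 3 (0.0518, 0.0561 and 0.0913). In shHIF2A MT-ND2 overlapped the parental range (adjusted p = 0.305).

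MT-ND3 (ENSG00000198840, chromosome MT 10059 to 10404), a short membrane subunit, was 1272, 1303 and 1357 CPM in parental cells, 1640, 1676 and 1388 in shHIF2A, 1013, 1091 and 1013 in shJUNs, with 1011, 834 and 723 in shYAPTAZ. It fell in shYAPTAZ (-0.62 ± 0.12, 1.53-fold, adjusted p = 0.000486) and in shJUNs (-0.34 ± 0.12, 1.26-fold, adjusted p = 0.0472). In shHIF2A all 3 libraries lay above the parental ones, but the difference did not pass (0.26 ± 0.12, adjusted p = 0.127). The shJUNs call ended in 9 of the 12 fits that left out a library, namely parental replicates 1, 2 and 3 (adjusted p = 0.054, 0.102 and 0.112), shHIF2A replicates 1 and 2 (0.058 and 0.0648), shJUNs replicates 1, 2 and 3 (0.139, 0.0822 and 0.145) and shYAPTAZ replicate 2 (0.0602). It also ended with library size alone (0.0666), without a filter (0.0742) and with DESeq2 (0.0549).

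MT-ND4 (ENSG00000198886, chromosome MT 10760 to 12137), the complex I mRNA with the most counts, was 5756, 4908 and 5453 CPM in parental cells, 7773, 7604 and 6064 in shHIF2A, 4843, 4848 and 4012 in shJUNs, with 5305, 4547 and 4710 in shYAPTAZ. It rose in shHIF2A (0.41 ± 0.10, 1.33-fold, adjusted p = 0.0075), where all 3 libraries exceeded the parental ones, and passed in neither shJUNs (-0.23 ± 0.10, adjusted p = 0.12) nor shYAPTAZ (-0.15 ± 0.10, adjusted p = 0.329). Without parental replicate 2 (adjusted p = 0.0577) or shHIF2A replicate 2 (0.0537) the rise no longer passed. MT-ND5 (ENSG00000198786, chromosome MT 12337 to 14148), whose product lies at the far end of the membrane arm, was 240, 285 and 289 CPM in parental cells and 413, 386 and 314 in shHIF2A, a rise of 0.45 ± 0.13 (1.37-fold, adjusted p = 0.0214) that ended without parental replicate 1 (adjusted p = 0.0879) or shHIF2A replicates 1 or 2 (0.108 and 0.0906). It was 296, 286 and 290 CPM in shJUNs (adjusted p = 0.669) and 270, 282 and 260 in shYAPTAZ (adjusted p = 0.982), both within a narrow band at the parental level.

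MT-ND4L (ENSG00000212907, chromosome MT 10470 to 10766), which shares its mRNA with MT-ND4, had 3563 counts in all against 226077 for MT-ND4. Its levels were 124, 83.2 and 78.9 CPM in parental cells, 119, 111 and 104 in shHIF2A, 80.2, 65.2 and 68.1 in shJUNs, with 56.5, 65.6 and 75.3 in shYAPTAZ. The parental group held 1 high value, replicate 1. The fall in shYAPTAZ (-0.53 ± 0.19, adjusted p = 0.048) ended without that library (adjusted p = 0.302). It also ended without shHIF2A replicates 1, 2 or 3 (0.055, 0.0634 and 0.051), shJUNs replicates 1, 2 or 3 (0.0579, 0.0571 and 0.0589) or shYAPTAZ replicates 1 or 2 (0.133 and 0.111), with limma-voom (0.0826), without a filter (0.0593) and in a fit of the 6 libraries compared (0.121). MT-ND6, the complex I gene on the minus strand, stood at 3.08 to 9.86 CPM in parental cells, 3.84 to 8.37 in shHIF2A, 8.46 to 8.84 in shJUNs and 5.07 to 12.7 in shYAPTAZ, and passed in no comparison. A difference in MT-ND6 was hard to detect at these counts, since its SE in the comparisons with parental cells was 0.50 to 0.51 on the log2 scale.

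Complex IV, cytochrome c oxidase, which passes electrons to oxygen, has 3 mRNAs. MT-CO1 rose and MT-CO3 fell in shYAPTAZ, both rose in shHIF2A, and MT-CO2 passed in no comparison. MT-CO1 (ENSG00000198804, chromosome MT 5904 to 7445), the catalytic subunit with the haem and copper centre, was 624, 783 and 806 CPM in parental cells, 981, 966 and 894 in shHIF2A, 846, 771 and 863 in shJUNs, with 1491, 1199 and 1441 in shYAPTAZ. The shYAPTAZ libraries were the 3 highest of 12. MT-CO1 rose in shYAPTAZ (0.90 ± 0.12, 1.87-fold, adjusted p = 7.17e-06), and this call held in all 21 alternative fits. In shHIF2A it also rose (0.36 ± 0.12, 1.28-fold, adjusted p = 0.0361), a call that ended without parental replicates 1 or 2 (adjusted p = 0.16 and 0.0621), shHIF2A replicates 1 or 2 (0.104 and 0.118) or shJUNs replicates 1, 2 or 3 (0.0581, 0.0576 and 0.0598), and without a filter (0.0657). In shJUNs it did not pass (adjusted p = 0.365).

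MT-CO3 (ENSG00000198938, chromosome MT 9207 to 9990), a core subunit without metal centres and the mRNA with the most counts, was 11367, 11525 and 10693 CPM in parental cells, 15647, 14814 and 13098 in shHIF2A, 11320, 11055 and 9815 in shJUNs, with 8979, 9220 and 8819 in shYAPTAZ. It rose in shHIF2A (0.38 ± 0.080, 1.30-fold, adjusted p = 0.00209) and fell in shYAPTAZ (-0.31 ± 0.080, 1.24-fold, adjusted p = 0.00552), and both calls held in all 21 alternative fits. MT-CO1 counts per 100 MT-CO3 counts were 5.49, 6.79 and 7.54 in parental cells, 6.27, 6.52 and 6.83 in shHIF2A and 7.48, 6.98 and 8.79 in shJUNs, with 16.6, 13 and 16.3 in shYAPTAZ. MT-CO2 (ENSG00000198712, chromosome MT 7586 to 8269), which holds the copper centre that receives electrons from cytochrome c, had its widest spread in shYAPTAZ. Its levels were 6337, 5564 and 6294 CPM in parental cells, 7124, 6407 and 4881 in shHIF2A, 5588, 5367 and 4354 in shJUNs, with 7549, 4765 and 3529 in shYAPTAZ. The shYAPTAZ libraries spread widely, with replicate 1 above all parental libraries and replicates 2 and 3 below them. Without shYAPTAZ replicate 1 the log2 change against parental cells was -0.55 (adjusted p = 0.0169), and with it -0.20 ± 0.24 (adjusted p = 0.605).

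Counts of both complex V genes, which share an mRNA, fell in shYAPTAZ. MT-ATP6 (ENSG00000198899, chromosome MT 8527 to 9207), a subunit of the proton channel, was 3957, 3736 and 4097 CPM in parental cells, 4418, 4141 and 3356 in shHIF2A, 3352, 3273 and 2882 in shJUNs, with 3158, 2801 and 2443 in shYAPTAZ. The fall was -0.49 ± 0.11 in shYAPTAZ (1.40-fold, adjusted p = 0.00193), with no overlap, and -0.31 ± 0.11 in shJUNs (1.24-fold, adjusted p = 0.047), also with no overlap. The shJUNs call ended without parental replicates 1, 2 or 3 (adjusted p = 0.077, 0.0661 and 0.119), shHIF2A replicate 2 (0.0648), shJUNs replicates 1, 2 or 3 (0.067, 0.091 and 0.212) or shYAPTAZ replicate 2 (0.0595). It also ended with library size alone (0.0645), without a filter (0.0504) and with DESeq2 (0.082).

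MT-ATP8 (ENSG00000228253, chromosome MT 8366 to 8572), a small subunit that shares its mRNA with MT-ATP6, had 1594 counts in all against 143931 for MT-ATP6. It was 42.8, 54.9 and 44.5 CPM in parental cells, 39.3, 48.2 and 41.5 in shHIF2A, 48.6, 32.7 and 36.1 in shJUNs, with 10.4, 28.2 and 21.6 in shYAPTAZ. The fall in shYAPTAZ (-1.21 ± 0.28, 2.32-fold, adjusted p = 0.00264) held in all 21 alternative fits as a call, with a log2 change of -0.93 without shYAPTAZ replicate 1, the lowest library, and -1.52 without shYAPTAZ replicate 2. MT-CYB (ENSG00000198727, chromosome MT 14747 to 15887), the cytochrome b of complex III, was 2276, 1789 and 2086 CPM in parental cells, 2381, 2227 and 1527 in shHIF2A, 1655, 1471 and 1412 in shJUNs, with 1947, 1594 and 1229 in shYAPTAZ. All 3 shJUNs libraries lay below the parental ones, and MT-CYB did not pass in shJUNs (-0.44 ± 0.16, adjusted p = 0.0648), shYAPTAZ (-0.37 ± 0.16, adjusted p = 0.108) or shHIF2A (adjusted p = 0.991). It passed in shJUNs without shHIF2A replicate 3 (adjusted p = 0.0237), shYAPTAZ replicate 1 (0.0315) or shYAPTAZ replicate 3 (0.0184), and in shYAPTAZ without shHIF2A replicate 3 (0.0439) or shYAPTAZ replicate 1 (0.0184). With limma-voom it passed in shJUNs (0.0401) and shYAPTAZ (0.0491), and without a filter likewise (0.00483 and 0.0151).

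**Figure D4:**
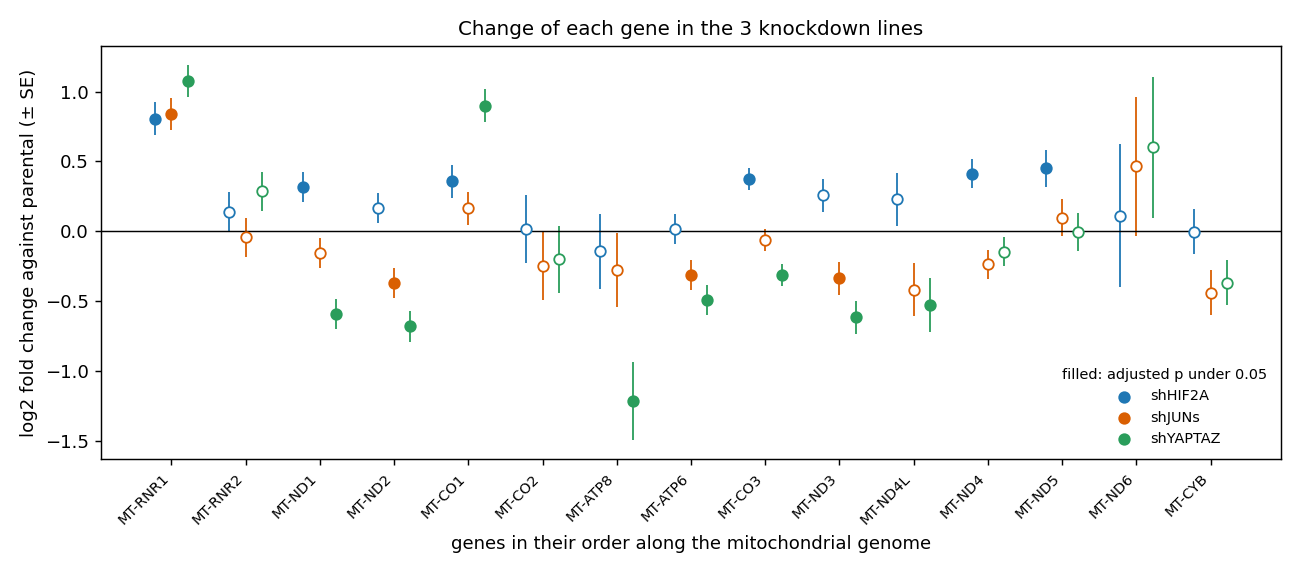
Log2 change against parental cells (y axis, bars ± SE) of the 15 tested members in each knockdown line (colours), in the order of the genes along the mitochondrial genome (x axis); filled points passed the test. MT-RNR1 lies above 0 in all 3 lines, and from MT-ND1 to MT-ND4L the shYAPTAZ points lie below 0 except for MT-CO1 at 0.90.

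By gene position, the changes in shYAPTAZ were not of 1 sign along the genome. MT-CO1, higher in this line, lies between MT-ND2 and MT-CO2, and its neighbour MT-ND2 was lower. Of the 13 mRNAs, 11 had a log2 change below 0 in shYAPTAZ and 10 in shJUNs, against 2 in shHIF2A. Over all genes tested the median log2 change was 0.022, -0.0016 and 0.0047 in these lines. The counts of mRNAs include changes smaller than their SE, such as MT-ND5 in shYAPTAZ (-0.0058 ± 0.13) and MT-CYB in shHIF2A (-0.0038 ± 0.16). Libraries of the 2 groups did not overlap for 7 of the 15 members in shHIF2A (36.1% of all genes), 6 in shJUNs (39.5%) and 9 in shYAPTAZ (36.2%), each against parental cells. Sorted by the annotated stop codon of each gene, 4 of the 6 genes with an incomplete one were called lower in shYAPTAZ (MT-ND1, MT-ND2, MT-CO3 and MT-ND3). Of the 7 genes with a complete one, 3 were lower (MT-ATP6, MT-ATP8 and MT-ND4L) and 1 was higher (MT-CO1). MT-ATP8 and MT-ND4L lie in the 5′ part of mRNAs shared with MT-ATP6 and MT-ND4, so their stop codons are not at the end of an mRNA. In shHIF2A 3 of 6 and 2 of 7 were higher, and in shJUNs 2 of 6 and 1 of 7 were lower. Over all genes 12.3% were called lower and 13% higher in shYAPTAZ, 9.84% higher in shHIF2A and 8.93% lower in shJUNs. The difference between the 2 kinds of stop codon was not tested.

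Set directly against each other, the knockdown lines differed past the test in mRNAs, while MT-RNR1 passed in none of these 3 comparisons. In shJUNs against shHIF2A, 6 members were lower (3.17% of all genes were called lower, and 7.53% either way), and the libraries of 10 did not overlap (31.2% of all genes). The lower members were MT-ND4 (-0.65 ± 0.10, adjusted p = 0.00032), MT-CO3 (-0.44 ± 0.080, adjusted p = 0.00118), MT-ND3 (-0.59 ± 0.12, adjusted p = 0.00257), MT-ND2 (-0.53 ± 0.11, adjusted p = 0.0032), MT-ND1 (-0.47 ± 0.11, adjusted p = 0.00775) and MT-ND4L (-0.65 ± 0.19, adjusted p = 0.0383). The other direction had 0 members (4.36% of all genes), with 0 at an unadjusted p under 0.05 in edgeR and 0 in DESeq2 and limma-voom. MT-RNR1 differed by 0.031 ± 0.11 (adjusted p = 0.916). The MT-ND1 call ended without shHIF2A replicate 2 (adjusted p = 0.0759) or shJUNs replicate 3 (0.0777). The MT-ND4L call ended without parental replicate 2 (0.0508), shHIF2A replicates 1, 2 or 3 (0.126, 0.114 and 0.061), shJUNs replicates 1, 2 or 3 (0.0678, 0.162 and 0.147) or shYAPTAZ replicate 2 (0.0545), and with library size alone (0.0541). MT-ATP6 was lower without passing (-0.33 ± 0.11, adjusted p = 0.069) and passed without shHIF2A replicate 3 (0.0222) or shYAPTAZ replicates 1 or 3 (0.0306 and 0.0356), and MT-CYB without shHIF2A replicate 3 (0.0163) or shYAPTAZ replicate 3 (0.0414).

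In shYAPTAZ against shHIF2A, 9 members were lower (8.72% of all genes) and 1, MT-CO1, was higher (9.71%), 10 either way (18.4%), and the libraries of 11 did not overlap (32.2%). MT-CO1 differed by 0.54 ± 0.12 (1.45-fold, adjusted p = 0.00248). The lower members included 6 of complex I, with MT-ND1 1.88-fold lower (-0.91 ± 0.11, adjusted p = 2.44e-06), MT-ND3 1.83-fold lower (-0.87 ± 0.12, adjusted p = 1.38e-05) and MT-ND2 1.80-fold lower (-0.85 ± 0.11, adjusted p = 6.71e-06). MT-ND4L, MT-ND4 and MT-ND5 were 1.69-, 1.47- and 1.37-fold lower. MT-CO3 was 1.61-fold lower (-0.69 ± 0.080, adjusted p = 1.77e-06), MT-ATP8 2.10-fold and MT-ATP6 1.42-fold. The MT-ND5 call (adjusted p = 0.0195) ended without shHIF2A replicates 1 or 2 (0.103 and 0.0886). MT-CO2 passed here only without shYAPTAZ replicate 1 (0.0206), among the fits that left out a library, and MT-CYB without shHIF2A replicate 3 (0.0157) or shYAPTAZ replicate 1 (0.0268). MT-RNR1 was 1.21-fold higher without overlap (0.27 ± 0.11, adjusted p = 0.108) and passed only without parental replicate 1 (0.0184), among those fits.

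In shYAPTAZ against shJUNs, MT-CO1 was again the member called higher (7.86% of all genes), by 0.74 ± 0.12 (1.67-fold, adjusted p = 0.000137). The 3 lower ones (8.27%) were MT-ND1 (-0.44 ± 0.11, adjusted p = 0.00655), MT-ATP8 (-0.94 ± 0.28, adjusted p = 0.0234) and MT-CO3 (-0.25 ± 0.080, adjusted p = 0.0318), so that 4 members were called either way (16.1%), and the libraries of 8 did not overlap (33.3%). The MT-ATP8 call ended without shJUNs replicate 1 (adjusted p = 0.133) or shYAPTAZ replicate 1 (0.0898), and in a fit of the 6 libraries compared (0.0596). For MT-CO3 it ended without shJUNs replicates 1 or 2 (0.143 and 0.111) or shYAPTAZ replicate 2 (0.0614), without a filter (0.0534) and with DESeq2 (0.106). MT-ND2 lay at the threshold (-0.31 ± 0.11, adjusted p = 0.0502) and passed without parental replicate 1 (0.0319), shHIF2A replicate 3 (0.0356) or shYAPTAZ replicate 3 (0.0122). MT-ND3 passed without shYAPTAZ replicate 1 (0.0117), MT-RNR2 (higher) without shYAPTAZ replicate 3 (0.00991) and MT-RNR1 (1.18-fold higher without overlap, adjusted p = 0.172) without parental replicate 1 (0.0464). MT-CO1 was the member whose level in shYAPTAZ exceeded that in each of the other 3 groups past the test.

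The nuclear genome encodes the remaining subunits of these complexes, and 72 of the 74 listed passed the filter. In shHIF2A 32 of the 72 were higher (9.84% of all genes) and 0 lower (8.8%), with a median log2 change of 0.39. In shJUNs 19 were higher (10.3% of all genes) and 0 lower (8.93%), with a median of 0.29, and in shYAPTAZ 16 were higher (13%) and 2 lower (12.3%), with a median of 0.14. For the counts of 0, 1 gene in shHIF2A and 0 in shJUNs were lower at an unadjusted p under 0.05, and DESeq2 and limma-voom called 0. In shYAPTAZ, where 7 of 13 mitochondrial protein-coding genes were lower, the lower nuclear subunits were UQCRH of complex III (617 ± 41.2 against 835 ± 39.5 CPM, adjusted p = 0.00428) and COX8A of complex IV (214 ± 11.6 against 312 ± 30.7 CPM, adjusted p = 0.00303).

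The counts by complex stand beside 9.84% of all genes called higher in shHIF2A, 10.3% in shJUNs and 13% in shYAPTAZ. Complex I had 12 of 35 nuclear subunits higher in shHIF2A, 9 in shJUNs and 9 in shYAPTAZ, such as NDUFA3, which rose from 39.8 ± 8.02 CPM to 90.5 ± 6.04 in shHIF2A and 87.6 ± 2.53 in shYAPTAZ. Complex III had 5, 4 and 3 of 9 higher. UQCRFS1, its iron-sulphur protein, rose from 131 ± 16.8 CPM to 308 ± 24.2 in shHIF2A, 199 ± 22.3 in shJUNs and 270 ± 27.5 in shYAPTAZ. Complex IV had 4 of 11 higher in shHIF2A, 2 in shYAPTAZ and 0 in shJUNs, where 4 were higher at an unadjusted p under 0.05 and DESeq2 and limma-voom called 1 each. Complex V had 11 of 17 higher in shHIF2A, 6 in shJUNs and 2 in shYAPTAZ, the last near the 13% of all genes called higher in that line. ATP5MC1, a gene of the rotor ring, rose from 119 ± 29.3 CPM to 244 ± 23.4 in shHIF2A and 302 ± 28.0 in shJUNs.

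Of 20 genes that maintain and transcribe mitochondrial DNA, 2 were higher in shHIF2A and 0 lower, 1 was higher and 1 lower in shJUNs, and 1 was higher and 2 lower in shYAPTAZ. Over all genes the shares called higher were 9.84%, 10.3% and 13% in these lines and those called lower 8.8%, 8.93% and 12.3%, so that these counts are near or below the shares over all genes. The polymerase POLRMT and its packaging and activating factor TFAM, named here for their role after their values were seen, did not pass in any line, with POLRMT log2 changes of 0.12 ± 0.29, 0.26 ± 0.28 and -0.031 ± 0.29 in shHIF2A, shJUNs and shYAPTAZ, and TFAM changes of 0.31 ± 0.24, -0.25 ± 0.24 and 0.12 ± 0.24. TFB2M, which opens the promoter for POLRMT, rose in shHIF2A from 23.4 ± 1.67 to 48.5 ± 8.59 CPM (adjusted p = 0.0213). SSBP1, the single-stranded DNA binding protein, rose in shHIF2A (424 ± 48.6 against 285 ± 46.6 CPM, adjusted p = 0.0129) and in shYAPTAZ (390 ± 80.8 CPM, adjusted p = 0.036, libraries overlapping). In shYAPTAZ the DNA polymerase POLG fell from 33.8 ± 13.1 to 16.2 ± 3.20 CPM (adjusted p = 0.0124), and LONP1, a protease of the matrix, from 115 ± 18.0 to 53.4 ± 7.08 CPM (adjusted p = 0.000117). LONP1 also fell in shJUNs, to 77 ± 4.20 CPM (adjusted p = 0.0253), where RNASEH1, which removes RNA from RNA-DNA hybrids, rose from 32.7 ± 15.2 to 58.9 ± 8.67 CPM (adjusted p = 0.0283).

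Of 18 genes for stability and decay of mitochondrial RNA, 6 were higher (9.84% of all genes) and 0 lower (8.8%) in shHIF2A. In shJUNs 2 were higher (10.3%), near the share over all genes, and 0 lower (8.93%), and in shYAPTAZ 4 were higher (13%) and 1 lower (12.3%). For the counts of 0, no gene in shHIF2A and 1 in shJUNs was lower at an unadjusted p under 0.05, and in shJUNs DESeq2 and limma-voom called 1 each. The lower gene in shYAPTAZ was LRPPRC, which binds and stabilises mitochondrial mRNAs, at 64.0 ± 5.74 CPM against 109 ± 7.67 in parental cells (-0.78 ± 0.17, adjusted p = 0.00162). Its values in the other lines are given after they were seen. In shJUNs LRPPRC was 79.8 ± 6.73 CPM, without overlap with parental libraries, and did not pass (-0.45 ± 0.17, adjusted p = 0.0578). In shHIF2A it was 116 ± 16.0 CPM (adjusted p = 0.780). SLIRP, the partner of LRPPRC, rose in shYAPTAZ from 33.4 ± 14.4 to 70.9 ± 20.7 CPM (adjusted p = 0.00993), in shJUNs to 71.9 ± 17.6 CPM (adjusted p = 0.012) and in shHIF2A, where it was named after its values were seen, to 67.3 ± 13.8 CPM (adjusted p = 0.0225). GRSF1, a protein of mitochondrial RNA granules, rose in shYAPTAZ from 134 ± 23.2 to 194 ± 26.7 CPM (adjusted p = 0.0153). FASTKD5, which acts on mRNA ends that no tRNA borders, rose from 1.75 ± 0.82 CPM to 13.1 ± 0.308 in shHIF2A (adjusted p = 0.000638) and 10.8 ± 3.02 in shJUNs (adjusted p = 0.0014). Its parental mean lay near the floor of 3 counts (0.671 to 1.32 CPM in a library), so the size of the rise is uncertain. FASTKD2, needed for the large-subunit rRNA, rose in shHIF2A from 37.5 ± 4.32 to 76.3 ± 13 CPM (adjusted p = 0.0012).

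RNA processing and modification had 2 of 23 genes higher and 1 lower in shHIF2A, 0 either way in shJUNs, and 2 higher and 1 lower in shYAPTAZ. These counts are near or below the shares over all genes, which were 9.84%, 10.3% and 13% higher and 8.8%, 8.93% and 12.3% lower in these lines. For the 0 in shJUNs, 3 were higher and 1 lower at an unadjusted p under 0.05, and DESeq2 called 2 higher. TRMT10C, a subunit of the enzyme that cuts tRNA 5′ ends, rose in shHIF2A from 20.0 ± 8.01 to 48.9 ± 6.91 CPM (adjusted p = 0.00295). ELAC2, which cuts tRNA 3′ ends, rose in shYAPTAZ from 44.7 ± 17.6 to 76.3 ± 15.6 CPM (adjusted p = 0.0244). The tRNA and rRNA methyltransferase TRMT61B fell in shHIF2A (14.9 ± 0.996 against 30.2 ± 3.99 CPM, adjusted p = 0.0114) and in shYAPTAZ (17.9 ± 3.18 CPM, adjusted p = 0.0442).

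In the lists for DNA maintenance, translation factors and import, each count of 0 lower genes in shHIF2A was also 0 at an unadjusted p under 0.05 and by DESeq2 and limma-voom. Translation factors had 2, 2 and 1 of 17 genes higher and 0, 1 and 2 lower in shHIF2A, shJUNs and shYAPTAZ. MTIF3, an initiation factor, fell in shYAPTAZ from 76.1 ± 19.6 to 34.7 ± 5.63 CPM (adjusted p = 0.0004). Among 10 regulators of mitochondrial biogenesis, 2, 1 and 1 were higher and 1 was lower in each line. Over all genes 9.84%, 10.3% and 13% were called higher and 8.8%, 8.93% and 12.3% lower in these lines. Apart from the 2 regulators higher in shHIF2A, the counts of both lists are near or below these shares. The coactivator PPARGC1A rose from 0.419 ± 0.239 CPM to 12.5 ± 5.11 in shHIF2A (adjusted p = 0.000807) and 4.24 ± 2.09 in shJUNs (adjusted p = 0.0155). Its parental mean lay below the floor of 3 counts (0.671 to 1.32 CPM in a library), so the size of the rise is uncertain. MYC fell from 333 ± 95.7 CPM to 84.6 ± 16.3 in shHIF2A, 100.5 ± 1.86 in shJUNs and 78.4 ± 39.5 in shYAPTAZ (adjusted p = 0.000226, 0.000587 and 8.65e-05). YY1 rose in shYAPTAZ from 124 ± 5.16 to 184 ± 17.7 CPM (adjusted p = 0.00629).

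Markers of mitochondrial mass and import had 5 of 20 higher (9.84% of all genes) and 0 lower (8.8%) in shHIF2A, 5 higher (10.3%) and 2 lower (8.93%) in shJUNs, and 1 higher (13%) and 5 lower (12.3%) in shYAPTAZ. TOMM20, a receptor of the outer membrane import pore, fell from 328 ± 35.6 CPM to 198 ± 10.8 in shJUNs (adjusted p = 0.000801) and 169 ± 11.5 in shYAPTAZ (adjusted p = 2.85e-05). HSPA9, the matrix chaperone that pulls proteins in, fell from 378 ± 11.6 CPM to 282 ± 20.4 in shJUNs (adjusted p = 0.028) and 227 ± 33.7 in shYAPTAZ (adjusted p = 0.000335). TOMM22, of the same pore, rose in shYAPTAZ from 109 ± 6.65 to 156 ± 25.8 CPM (adjusted p = 0.0242). Beside the same shares of all genes, mitophagy and hypoxia-response genes had 0 of 13 higher and 1 lower in shHIF2A (1 higher at an unadjusted p under 0.05, and 0 by DESeq2 and limma-voom), and 1 higher and 3 lower in both other lines. MXI1, a MYC antagonist induced by hypoxia, was lower in all 3, at 31.0 ± 7.70, 24.6 ± 4.49 and 28.1 ± 11 CPM against 83.5 ± 28.3 in parental cells. BNIP3, a mitophagy receptor, rose in shYAPTAZ from 188 ± 22.3 to 280 ± 14.4 CPM (adjusted p = 0.00335).

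Copies of mitochondrial sequence in nuclear chromosomes can draw or lose reads of the members. The table lists 404 such copies outside chromosome MT, of which 32 had counts, 11662 in all or 0.373% of the mitochondrial total. MTATP6P1 (chromosome 1, 633696 to 634376) held 91.8% of these, 7.44 counts per 100 of MT-ATP6. It was 299 ± 14.1 CPM in parental cells, 286 ± 46.6 in shHIF2A, 252 ± 41.2 in shJUNs and 187 ± 0.250 in shYAPTAZ, and fell in shYAPTAZ (-0.68 ± 0.15, adjusted p = 0.00173), as MT-ATP6 did. The next in counts were MTND2P28 with 369, MTND1P23 with 166 and MTND1P26 with 92, none of which passed against parental cells. Reads shared by MT-ATP6 and MTATP6P1 cannot be told apart in a table of counts, so the values of both are uncertain to that extent.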

How the data were processed

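The authors deposited raw counts per gene, made with Trim Galore and STAR on hg38 per the submitters' processing notes; the sources used here do not name the counting program, use of strand, annotation release or treatment of molecular identifiers. Of 62705 lines, 1 gene broken over 3 lines was left out, leaving 62702 genes (62624 with a symbol, 78 under their ID). Groups came from the sample titles. Counts were fitted with edgeR 4.0.16 in R 4.3.3 (filterByExpr, TMM, 1 robust quasi-likelihood fit of 12 libraries, group means, Benjamini-Hochberg over 12301 genes, adjusted p under 0.05; common dispersion 0.0628). Alternatives used DESeq2 1.42.0, limma 3.58.1, other scalings, filters and left-out libraries. The method was tested on simulated counts. Members with at least 100 counts are given per library; of each of the 16 gene lists, the 2 called genes with the smallest p per direction could be named, and of the nuclear copies the 4 with the most counts. Members and lists were chosen with earlier results of these data known.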

Additional observations from a re-analysis of the deposited data

How the results depend on the processing

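Over 90 pairs of member and comparison and up to 21 alternative fits each, 1748 of 1884 values kept their direction and side of the threshold, 87 lost the call, 49 gained it and 0 changed direction among those called. The counts that moved by over 1.5 times were as follows. Leaving out 1 library at a time, the members called higher in shHIF2A against parental cells numbered 2 to 6 (6 with all libraries; 3 without parental replicate 1, parental replicate 2 or shHIF2A replicate 1, and 2 without shHIF2A replicate 2). Those lower in shJUNs numbered 0 to 4 (3 with all; 1 without parental replicates 1 or 3, shHIF2A replicate 2 or shYAPTAZ replicate 2, and 0 without parental replicate 2 or any shJUNs library), 1 with library size alone and 1 with DESeq2. Those higher in shYAPTAZ against shHIF2A numbered 1 to 2 (2 without parental replicate 1) and against shJUNs 1 to 2 (2 without parental replicate 1 or shYAPTAZ replicate 3), and 2 against shJUNs without a filter on low counts. Those lower in shYAPTAZ against shJUNs numbered 1 to 4 (1 without shJUNs replicate 1). Taken over the 13 mRNAs alone, the mean mitochondrial share in shYAPTAZ was 0.817 times the parental one, against 1.04 times with all 37 genes, which include the rRNA counts. Where a cause is not stated, the cause was not tested. Where a left-out library left 2 in a group, the spread was pooled over all groups.

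The labels do not say whether the replicate numbers pair the libraries, and the main fit has no block. Of 18 same-numbered pairs, 6 had deviations that correlated above 0.1, and 8 of 12 libraries correlated best with their own number. Correlations were 0.048 to 0.19 between libraries numbered 1, -0.0075 to 0.017 between those numbered 2 and 0.044 to 0.24 between those numbered 3. This is a hint of pairing from the data and not from the design. With the replicate number as a block, 3 members were higher and 8 lower in shYAPTAZ against parental cells (2 and 7 without it), and MT-RNR2 was the added higher one (adjusted p = 0.000507). With the block 5 members were lower in shJUNs against parental cells, 2 were higher in shYAPTAZ against shHIF2A, and 2 were higher and 5 lower in shYAPTAZ against shJUNs. It also added MT-RNR2, MT-ATP6 and MT-CYB to the lower members in shJUNs against shHIF2A (adjusted p = 0.0472, 0.0127 and 0.0101). In shYAPTAZ against shHIF2A it added MT-CYB to the lower ones (0.0134).

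Counts were lowest for the 22 tRNAs (184 in all) and MT-ND6 (333), so differences in them were hard to detect at this depth. The share of molecules missed by priming on poly(A) is not known for any member.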
